A study of Homo sapiens with 62 samples.

Results

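The long arm of chromosome 8, 8q, runs from the centromere to the end of chromosome 8. The genes described here are the protein-coding genes whose midpoint lies on that arm in GRCh38 and whose mean level in a cell line was at least 1 CPM, the unit of counts scaled to a common library total. Of 58735 genes listed, 411 were protein-coding genes of 8q. The minimum was met by 279 of them in A2058 and by 254 in HCT116, with 239 in both lines, 40 in A2058 alone and 15 in HCT116 alone, and 117 were under it in both. Near the minimum, TTPA at 1.039 CPM and WDR97 at 1.168 CPM were just inside in A2058, and MCMDC2 at 0.9121 CPM and SLC25A32 at 0.8807 CPM just outside. In HCT116, DEPTOR at 1.007 CPM was just inside and IL7 at 0.9459 CPM just outside.

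The series holds 62 mRNA sequencing libraries of 5 human lines with extra chromosome arms, either before or after the removal of an arm. A2058 is a melanoma line whose wildtype cells (WT) carry gains of 1q, 7p and 8q, per the labels. It was sequenced as 4 WT libraries, 4 8q-loss libraries, 4 1q-loss libraries and 6 7p-loss libraries. HCT116 is a colorectal cancer line whose WT cells carry a gain of 8q, and it was sequenced as 2 WT and 4 8q-loss libraries. All 8q-loss cells were made with ReDACT-CO targeting chr8q, a genome-engineering method aimed at removing an extra arm, and the A2058 1q-loss and 7p-loss cells with ReDACT-CO targeting chr1q and chr7p. The labels describe 8q as trisomic before the loss. They name no change of 8q in the 1q-loss and 7p-loss clones and no change of 1q or 7p in the 8q-loss clones. Each 8q-loss group is 2 single-cell-derived clones with 2 libraries each, as is the 1q-loss group, and the 7p-loss group is 3 clones with 2 libraries each. Cells were plated and grown for 24 hours before RNA extraction. The labels do not call the WT cells a single-cell clone, so in HCT116 passage through a single cell and the loss of 8q cannot be told apart. In A2058 the 1q-loss and 7p-loss clones, which also passed through a single cell, are given beside the 8q-loss clones. Libraries of 1 clone are not independent, and the labels do not say that the WT libraries came from separate cultures, so the p-values measure the spread between these libraries, which may be technical. The other 3 lines are AGS (gastric cancer, 8 libraries), A2780 (ovarian cancer, 10 libraries) and MCF10A (breast epithelial, 20 libraries, 10 of them expressing hRASV12), each with 1q-loss clones and with libraries that keep the 1q gain, some of them with a TK+ integrant in AGS and A2780.

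Gain of 8q is among the most frequent arm gains in human cancers. The arm carries MYC, the transcription factor that drives growth and biosynthesis, together with the cohesin subunit RAD21, ribosomal and respiratory chain genes, and several kinases and adapters of cell adhesion. When a chromosome arm is gained or lost, the RNA of most of its genes tends to follow the number of copies, while single genes can depart from that through regulation, and in bulk RNA a lower level in every cell cannot be told apart from a smaller share of cells that express the gene.

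Total counts were 19595543 to 24051545 in the 8 A2058 libraries compared first and 21373588 to 30984036 in the 6 HCT116 libraries, within a range of 15042068 to 30984036 over all 62. Of 10 genes of the melanocyte lineage, all 10 averaged at least 1 CPM in A2058 WT and in A2058 8q-loss, and 2 of 10 did in HCT116. Of 10 genes of the intestinal epithelium, 4 reached 1 CPM in HCT116 WT, 5 in HCT116 8q-loss and 2 in A2058. Their summed level was 2647 to 7714 CPM in HCT116 8q-loss, 4005 to 5497 CPM in HCT116 WT and 75.5 to 112 CPM in the A2058 libraries of both groups. Most of that sum was KRT8 and KRT18, keratins of simple epithelia in general. Over the 6 HCT116 libraries the intestinal factor CDX2 averaged 47.1 CPM and EPCAM 108 CPM, while CDX1, VIL1, CDH17, LGALS4 and CEACAM5 were each under 1 CPM, so much of the intestinal list was near 0 in HCT116.

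In A2058, 124 of 272 members tested fell in 8q-loss cells, 45.6% of them, where 1.49% of all genes tested were called lower. None was called higher, against 0.542% of all genes, although 1 was without 8q-loss clone 1 and 3 were without clone 2. A call is a p under 0.05 in the edgeR quasi-likelihood test after Benjamini-Hochberg adjustment over all 15141 genes. At an unadjusted p under 0.05, 217 members were lower (6.39% of all genes) and 2 higher (6.64% of all genes). The other 7 members are outside these numbers because they had too few counts in the 8 libraries to be tested. NPBWR1, TNFRSF11B, COLEC10, MAL2, FAM83A and WISP1 reached the minimum through the 1q-loss libraries, and KCNK9 through the 7p-loss libraries. The log2 fold change was below 0 for 263 of the 272 members (96.7%, against 48.4% of all genes), its median was -0.53, which is 69.1% of the WT level, and its quartiles were -0.66 and -0.41. The median over all genes tested was 0.01.

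The 124 calls were sensitive to the libraries and the model used, while the direction was not. With WT replicates 1 and 2 alone 27 members were called, with WT replicates 3 and 4 alone 4, without WT replicate 1 64 and without WT replicate 2 60, and in a fit that shared its estimate of spread with HCT116 7. With the replicate number as a block, which the labels tie to no shared culture, 12 were called, and 18 of the 24 named calls below were lost. The median stayed between -0.58 and -0.51 in all 20 alternatives run for it. In 177 members (65.1%) all 4 8q-loss libraries lay below all 4 WT libraries, where 4.54% of all genes did, and no member lay wholly above (4.17% of all genes). By size, 8 members were under 50% of WT, 194 between 50% and 75%, 61 between 75% and 100%, and 9 at or above 100%. If RNA followed copies exactly, a change from 3 copies to 2 would leave 66.7%, a log2 fold change of -0.58. The 95% interval of 200 members held that value and not 0, that of 37 held both, and that of 16 held 0 but not -0.58. The interval of 11 members lay wholly below -0.58, that of 6 wholly between -0.58 and 0, and that of 2 wholly above 0.

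In HCT116 the members were lower by about as much, with far wider errors. None of 254 members was called in either direction by edgeR, where 0.115% of all genes were called lower and 0.0255% higher. At an unadjusted p under 0.05, 72 members were lower (3.44% of all genes) and 1 higher (2.02% of all genes), where 5.45% of all genes were past it in either direction, and DESeq2 called 7 members, all lower. The log2 fold change was below 0 for 233 members (91.7%, against 48.5% of all genes). Its median was -0.56, or 67.8% of the WT level, its quartiles were -0.81 and -0.32, and the median over all genes was 0.02. All 4 8q-loss libraries lay below both WT libraries in 77 members (30.3%, against 7.5% of all genes) and above both in 1 (7.04% of all genes). In HCT116, 37 members were under 50% of WT, 128 between 50% and 75%, 68 between 75% and 100% and 21 at or above 100%. The 95% interval held both 0 and -0.58 in 178 of the 254 members, and the median SE was 0.37 against 0.13 in A2058. The median was -0.43 without WT replicate 2, when 183 members were below 0, and -0.64 without WT replicate 1.

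Each library was summarised by its shift, the median over members of log2 CPM minus the mean of the WT libraries, from which the same median over protein-coding genes of the other autosomes was subtracted. The 4 A2058 8q-loss libraries had shifts of -0.50 and -0.52 (clone 1) and -0.60 and -0.55 (clone 2), a mean of -0.54 ± 0.04 (SD, n = 4). The WT libraries ran from -0.03 to 0.02, the 1q-loss libraries from -0.03 to -0.00 and the 7p-loss libraries from -0.08 to 0.02, so no A2058 library that keeps the gain came near an 8q-loss library. In HCT116 the 8q-loss libraries had shifts of -0.63 and -0.52 (clone 1) and -0.68 and -0.72 (clone 2), a mean of -0.64 ± 0.09 (SD, n = 4). Its 2 WT libraries stood at -0.13 and 0.13, equal and opposite because their mean is the reference. In AGS, A2780 and MCF10A every library lay between -0.08 and 0.05 around its own controls. Genes of the short arm, chosen by the same rule (149 in A2058 and 141 in HCT116), had a mean shift of 0.04 in A2058 8q-loss and 0.03 in HCT116 8q-loss. Single libraries ran from -0.03 to 0.13 in A2058 8q-loss and from -0.16 to 0.11 in HCT116 8q-loss, with HCT116 WT at -0.12 and 0.12.

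**Figure D1:**
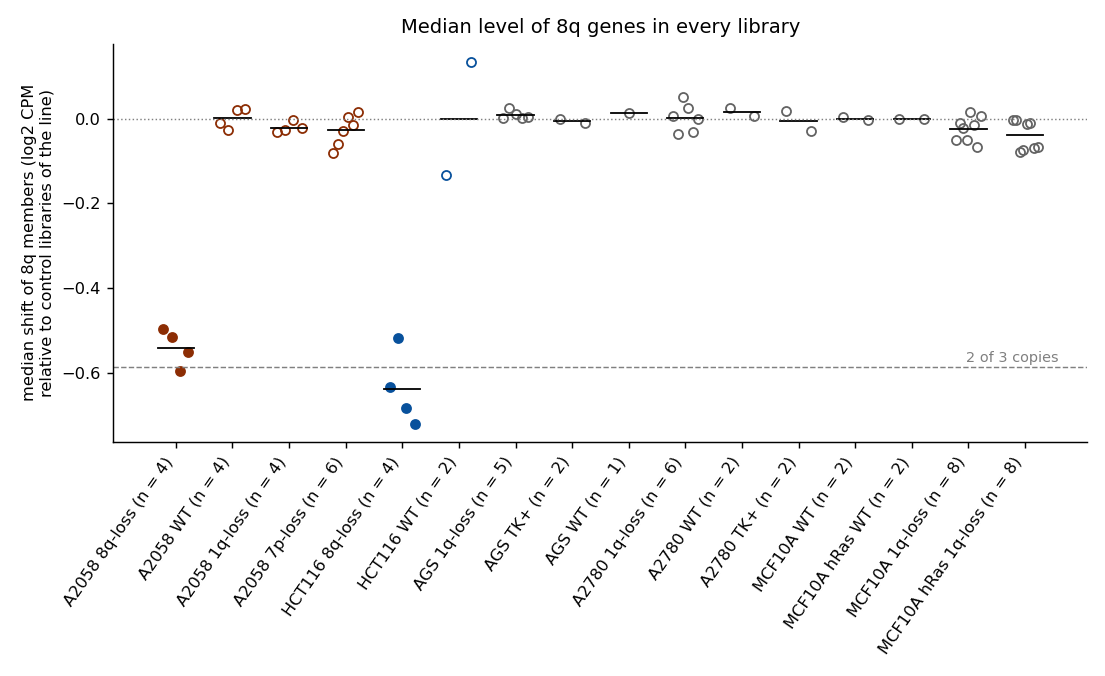
Median shift of the 8q members (log2 CPM relative to the control libraries of the same line, after subtracting the median of genes on other autosomes) in each of the 62 libraries, 1 point per library, with bars at group means and a dashed line at -0.58, the value for 2 of 3 copies. The filled points, the 4 A2058 8q-loss libraries at -0.60 to -0.50 and the 4 HCT116 8q-loss libraries at -0.72 to -0.52, lie apart from all others.

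As a share of all counts, the A2058 members took 2.95% ± 0.03 (SD, n = 4) in WT and 2.04% ± 0.04 (SD, n = 4) in 8q-loss, while 1q-loss stood at 2.92% ± 0.04 (SD, n = 4) and 7p-loss at 2.94% ± 0.03 (SD, n = 6). The HCT116 members took 2.82% ± 0.08 (SD, n = 2) in WT and 1.88% ± 0.16 (SD, n = 4) in 8q-loss. Members chosen by the same rule in the other lines took 2.24% in the AGS WT library, 2.03% ± 0.01 (SD, n = 2) in A2780 WT and 3.03% ± 0.05 (SD, n = 2) in MCF10A WT.

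Along the arm, the lower level was not confined to a segment. In windows of 10 Mb with at least 8 members, the median shift of A2058 clone 1 was between -0.61 and -0.39 and that of clone 2 between -0.67 and -0.44, below 0 in all 9 windows for both. The WT libraries of A2058 stayed between -0.11 and 0.13 in the same windows, and the 1q-loss clones and 7p-loss clones 2 and 3 between -0.18 and 0.21. The widest range among clones that keep the gain was that of 7p-loss clone 1, from -0.31 in the window from 90 to 100 Mb, where 61 of 76 members were below 0, to 0.32 in the window from 80 to 90 Mb. In HCT116, clone 1 was between -0.84 and -0.23 and clone 2 between -0.99 and -0.20, again below 0 in all 10 windows, while the WT libraries ran from -0.36 to 0.36. Clone 1 was least lowered next to the centromere, in the window from 0 to 10 Mb, and clone 2 in the window from 80 to 90 Mb. Clone 2 was most lowered in the last window, from 90 to 100 Mb.

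**Figure D2:**
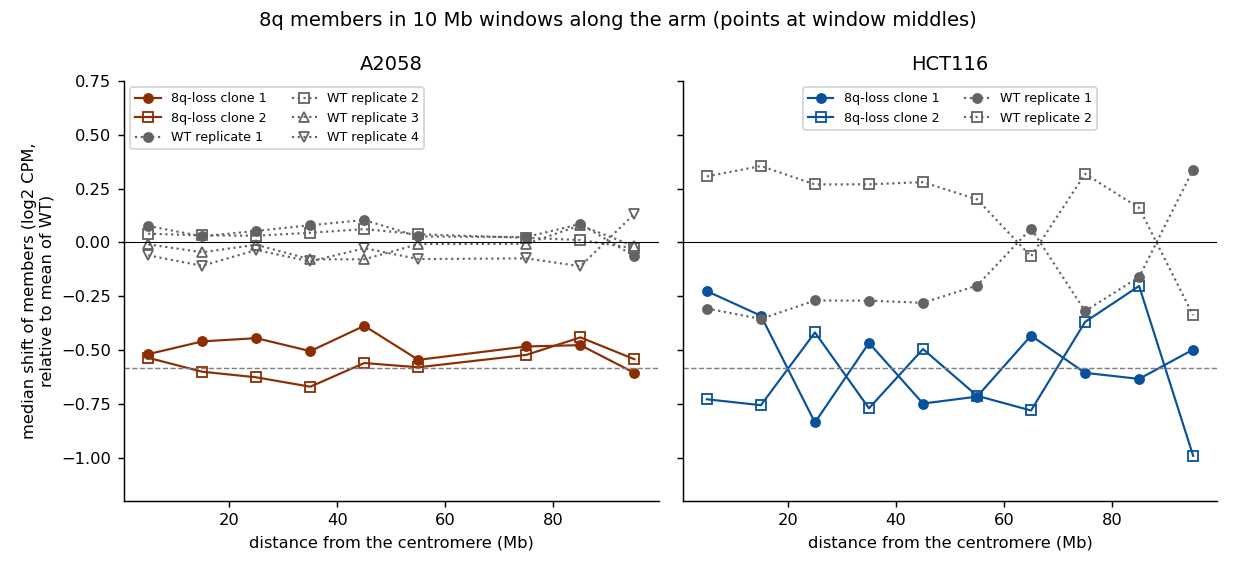
Median shift of members (log2 CPM relative to the mean of the WT libraries) in 10 Mb windows against distance from the centromere, for each 8q-loss clone (mean of 2 libraries) and each WT library, with A2058 left and HCT116 right and a dashed line at -0.58. The A2058 clones run flat between -0.67 and -0.39, while the HCT116 clones range from -0.99 to -0.20 and the 2 WT libraries mirror each other by construction.

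The last window differs from the rest of the arm in base composition. Its members had a median GC content of 63.2% in A2058 and 63.4% in HCT116, against 37.6% to 46.1% in the other windows. Levels in the HCT116 libraries moved with GC: over 11002 genes outside chromosome 8, the rank correlation between a gene's GC content and its deviation from the WT mean was 0.69 and -0.69 in the WT libraries and 0.41, -0.15, -0.47 and -0.33 in the 8q-loss libraries. In A2058 the same correlation, over 11271 genes, was -0.36 and -0.31 in WT replicates 1 and 2 and 0.19 and 0.34 in WT replicates 3 and 4. It ran from -0.36 to 0.16 in the A2058 8q-loss libraries. With GC corrected library by library, the HCT116 median was -0.57, 238 of 254 members were below 0, 113 were lower at an unadjusted p under 0.05 and 6 were called lower: RRM2B, CPNE3, NDRG1, SCRIB, GGH and DSCC1. The window medians of the fitted change, which ran from -0.63 to -0.34 in HCT116 before the correction, ran from -0.68 to -0.37 after it, with the last window at -0.63 before and -0.51 after. In A2058, 150 members were called after the correction, 120 of them among the 124 called before it.

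The fitted changes of members spread more widely in HCT116 than in A2058. The median SE was also larger in HCT116, 0.37 against 0.13, so wider differences between genes cannot be told apart from wider error. Over the 238 members tested in both lines, the interquartile range of the log2 fold change was 0.22 in A2058 and 0.49 in HCT116, around medians of -0.54 and -0.57. Both lines were below 0 for 215 members, A2058 alone for 17, HCT116 alone for 6 and neither for 0. The size of the change in A2058 and in HCT116 was hardly related across these 238 genes (Pearson's r = -0.09, Spearman's rho = -0.04), which are not independent replicates. Groups did not overlap in both lines for 48 members, which is 28.4% of the 169 shared members non-overlapping in A2058 and 65.8% of the 73 non-overlapping in HCT116. These shares lie near those over all 238 shared members, of which 73 did not overlap in HCT116 and 169 in A2058. Of the 122 shared members that fell in A2058, 39 were past an unadjusted p of 0.05 in HCT116, a share near that of all shared members, 69 of 238.

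**Figure D3:**
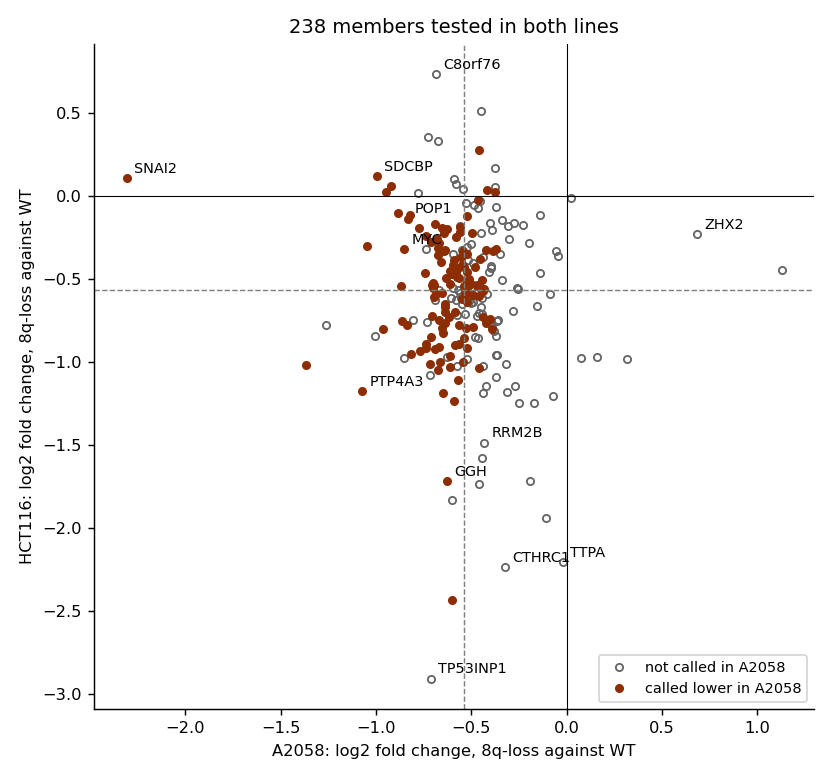
Log2 fold change of 8q-loss against WT in A2058 (horizontal axis) and HCT116 (vertical axis) for the 238 members tested in both lines, 1 point per gene, filled where the gene was called lower in A2058, with dashed lines at the medians. Most points lie below 0 on both axes, 215 of 238, and the spread is wider vertically.

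The spread between libraries differed between the lines in the same way. The median absolute difference between the 2 HCT116 WT libraries was 0.63 log2 units over members and 0.56 over all genes tested, and that between the 2 HCT116 clones was 0.56 and 0.57. In A2058, pairs of WT libraries differed by 0.11 to 0.20 over members, and the 2 clones by 0.17. The clones differed by more than 1 log2 unit for 47 of 254 members in HCT116 and for 13 of 272 in A2058. The spread was wider among members of low level. In A2058, the interquartile range of the change was 0.37 in the lowest of 3 equal classes of mean level, 0.25 in the middle and 0.18 in the highest, with 23 of 91, 39 of 90 and 62 of 91 called, while the medians were -0.55, -0.51 and -0.55. In HCT116 the interquartile range was 0.79, 0.46 and 0.37 across the same classes.

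The difference between the 2 changes was then tested itself. None of 239 members was called, where 0.514% of all genes were called in either direction, and 25 members differed at an unadjusted p under 0.05 (10.4% of all genes), 12 of them lower in A2058 (5.71% of all genes) and 13 lower in HCT116 (4.72%). The change was lower in A2058 for 128 members, against 56.5% of all genes. The median SE of the difference was 0.37. DESeq2 called 6 members, and leaving out HCT116 clone 1 or clone 2 gave 18 and 7.

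The members were then grouped by role, and the counts in a group stand beside those of the whole arm. In A2058, 45.6% of all members tested fell (1.49% of all genes), 217 of 272 were lower at an unadjusted p under 0.05 (6.39% of all genes) and 65.1% did not overlap (4.54% of all genes). In HCT116 no member was called, 72 of 254 were lower at an unadjusted p under 0.05 (3.44% of all genes) and 30.3% did not overlap (7.5% of all genes).

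Genes that copy and repair DNA or order the cell cycle were below 0 throughout in A2058. Of 17 such members, 10 fell, 17 were lower at an unadjusted p under 0.05, and 15 did not overlap, where 124, 217 and 177 of all 272 members did. Their median was -0.49, against -0.53 over all members, and their range was narrow, from -0.82 to -0.42. E2F5, a repressive E2F factor, was the lowest of them at 24.3, 22.7, 20.4 and 20.97 CPM in the 4 WT libraries, 13.4 and 10.8 CPM in the libraries of clone 1 and 13.4 and 12.7 CPM in those of clone 2 (log2 fold change -0.82, SE 0.11, adjusted p = 0.00625). MCM4, a subunit of the replicative helicase, was the least lowered at 413, 446, 447 and 505 CPM in the 4 WT libraries, 337 and 367 CPM in the libraries of clone 1 and 323 and 336 CPM in those of clone 2 (log2 fold change -0.42, SE 0.08, adjusted p = 0.0265). No 8q-loss library of either gene reached its lowest WT library. E2F5 was lower still in a clone with no labelled change of 8q, at 6.23 and 8.96 CPM in 7p-loss clone 1, against 17 to 22.4 CPM in 7p-loss clones 2 and 3.

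RAD21, the cohesin subunit that closes the ring around sister chromatids (ENSG00000164754, chromosome 8, 116845935 to 116874866), measured 428, 373, 366 and 315 CPM in the 4 WT libraries, 278 and 206 CPM in the libraries of clone 1 and 248 and 208 CPM in those of clone 2. The groups did not overlap and RAD21, whose 7p-loss libraries ranged from 352 to 434 CPM, fell (log2 fold change -0.67, SE 0.13, adjusted p = 0.0263). PRKDC, the catalytic subunit of DNA-dependent protein kinase in end joining, averaged 706 ± 42.1 CPM (SD, n = 4) in WT and 531 ± 24.5 CPM (SD, n = 4) in 8q-loss and fell (log2 fold change -0.42, SE 0.08, adjusted p = 0.0196). NBN, the nibrin subunit of the MRE11 complex that senses double-strand breaks, averaged 99.6 ± 5.35 CPM (SD, n = 4) and 74.1 ± 8.72 CPM (SD, n = 4) and fell by the narrowest margin (log2 fold change -0.43, SE 0.09, adjusted p = 0.0468). The calls of NBN, PRKDC, MCM4 and RAD21 were lost when some single libraries were left out, and that of E2F5 was not.

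In HCT116 the same 17 genes had a median of -0.35, with 14 below 0, 3 non-overlapping and 2 lower at an unadjusted p under 0.05, where 77 and 72 of all 254 members were. DSCC1, a subunit of the clamp loader that establishes cohesion, was the lowest, at 44.6 and 65.6 CPM in the 2 WT libraries, 19.6 and 27.2 CPM in the libraries of clone 1 and 30.4 and 25.4 CPM in those of clone 2 (log2 fold change -1.14, adjusted p = 0.353, unadjusted p = 0.00241). All 4 loss libraries of DSCC1 lay below both WT libraries. RAD21 split by clone, at 76.9 and 169.5 CPM in the 2 WT libraries, 53.6 and 73.1 CPM in the libraries of clone 1 and 157 and 132 CPM in those of clone 2. Clone 1 lay below both WT libraries and clone 2 between them, and the fitted change was -0.29 with a 95% interval of -1.23 to 0.65. ATAD2, a chromatin-bound ATPase that acts with E2F and MYC, was the highest of the list at 0.28 (95% interval -0.57 to 1.12). For MCM4 the value was 0.03 (-0.66 to 0.73), for PRKDC -0.33 (-0.98 to 0.33) and for NBN -0.56 (-1.33 to 0.21).

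Of the regulators of transcription and chromatin, 15 of 22 listed were tested in each line. In A2058, 7 fell and 13 were below 0, around a median of -0.52. MYC (ENSG00000136997, chromosome 8, 127735434 to 127741434) was the lowest of the list. It measured 39.3, 38.4, 37.1 and 33.7 CPM in the 4 WT libraries, 21.3 and 18.9 CPM in the libraries of clone 1 and 23.2 and 19.3 CPM in those of clone 2, so the highest 8q-loss library stood well under the lowest WT library. MYC fell (log2 fold change -0.85, SE 0.10, adjusted p = 0.00275), and of the 20 alternatives its call was lost only when WT replicates 3 and 4 were the sole controls. Levels like those of 8q-loss also occurred in clones with no labelled change of 8q. MYC measured 20.6 and 19.5 CPM in 7p-loss clone 2 and 24.4 and 20.3 CPM in 7p-loss clone 3, against 78.8 and 86.8 CPM in 7p-loss clone 1, and 24.9 and 30.8 CPM in 1q-loss clone 1 and 25.4 and 24.9 CPM in 1q-loss clone 2. The 1q-loss and 7p-loss clones share their WT controls with 8q-loss. KLF10, a transcriptional repressor induced by TGF-beta, was the highest of those above 10 CPM, and its loss libraries lay inside the range of WT, at 28.5, 34.1, 34.1 and 40.7 CPM in the 4 WT libraries, 37.7 and 35.5 CPM in the libraries of clone 1 and 31.03 and 36.3 CPM in those of clone 2 (log2 fold change 0.02, 95% interval -0.23 to 0.28).

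HCT116 expressed MYC at a much higher level than A2058 and the clones differed. MYC measured 550.2 and 452 CPM in the 2 WT libraries, 364 and 373 CPM in the libraries of clone 1 and 453 and 474 CPM in those of clone 2, with both libraries of clone 1 below both WT libraries and both of clone 2 between them. The fitted change was -0.32 (95% interval -0.86 to 0.22, adjusted p = 1). The change in A2058 minus that in HCT116 was -0.60 (95% interval -1.05 to -0.15, unadjusted p = 0.0124, adjusted p = 0.298). Of the 15 HCT116 regulators tested, 3 were lower at an unadjusted p under 0.05 and 13 were below 0, around a median of -0.35. MAF1, the repressor of RNA polymerase III, was the lowest above 10 CPM, with a log2 fold change of -0.89 (95% interval -1.60 to -0.19, adjusted p = 0.693), and KLF10 the highest at -0.01 (-0.63 to 0.60).

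**Figure D4:**
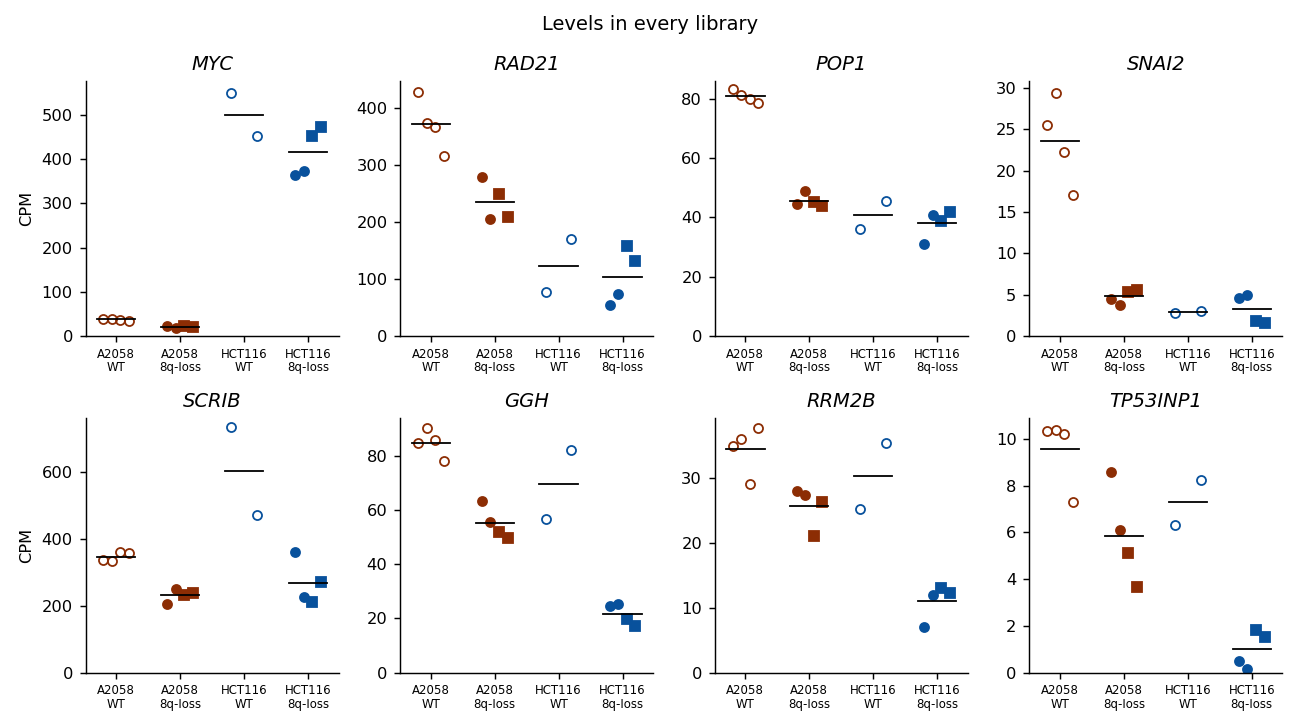
CPM of 8 members in every WT (open) and 8q-loss library (filled circles for clone 1, squares for clone 2) of A2058 and HCT116, with bars at group means and linear axes from 0. POP1 and SNAI2 separate in A2058 and overlap in HCT116, while GGH, RRM2B and TP53INP1 are furthest apart in HCT116.

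The genes of ribosomes and translation lay close together in A2058. All 11 were lower at an unadjusted p under 0.05, 9 fell, all 11 were non-overlapping, and their changes ran only from -0.87 to -0.52 around a median of -0.55. RRS1, a ribosome assembly factor, was the lowest at 101, 100.5, 95.9 and 101 CPM in the 4 WT libraries, 51.4 and 54.3 CPM in the libraries of clone 1 and 56.98 and 57.1 CPM in those of clone 2, with the groups far apart (log2 fold change -0.87, SE 0.07, adjusted p = 0.00042). RRS1 was also below WT in 7p-loss clone 1, at 63.01 and 67.4 CPM, and at 95.2 to 101 CPM in 7p-loss clones 2 and 3. UTP23, a processing factor of the small subunit, was the least lowered at -0.52 (adjusted p = 0.0166), and missed the threshold when WT replicate 1 (adjusted p = 0.0656) or WT replicate 2 (adjusted p = 0.0702) was left out.

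Among the 5 members of highest level per kilobase over both lines, 4 belong to this group, and the fifth is CYC1. RPL8, a protein of the large ribosomal subunit, stood at 685 CPM per kilobase in A2058 WT and 3004 in HCT116 WT, RPL7 at 262 and 490.2, PABPC1, which binds poly(A) tails, at 289 and 213, and RPS20 at 181 and 272. Ribosomal protein genes have many processed pseudogenes, and how the counting shared reads among copies was not stated, so their values are uncertain. In A2058, RPS20 fell (log2 fold change -0.74, SE 0.09, adjusted p = 0.00474), as did PABPC1 (log2 fold change -0.64, SE 0.10, adjusted p = 0.00853) and RPL7 (log2 fold change -0.52, SE 0.11, adjusted p = 0.0372). RPL8 had a change of -0.55 with an adjusted p of 0.136. The RPL7 call was lost after the GC correction, when the libraries of each clone were summed, without WT replicates 1, 2, 3 or 4 in turn, and without 3 of the 4 8q-loss libraries in turn.

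In HCT116 the 11 genes had a median of -0.56, all 11 were below 0 and 4 were lower at an unadjusted p under 0.05. The clones differed in which genes were low. RPS20 measured 784 and 850.2 CPM in the 2 WT libraries, 1153 and 966 CPM in the libraries of clone 1 and 374 and 362 CPM in those of clone 2, above both WT libraries in clone 1 and below both in clone 2. PABPC1 did the opposite, at 899 and 1127 CPM in the 2 WT libraries, 563 and 631 CPM in the libraries of clone 1 and 1192 and 1199 CPM in those of clone 2. RRS1 was low in both clones, at 48.2 and 59.5 CPM in the 2 WT libraries, 32.9 and 28.3 CPM in the libraries of clone 1 and 35.1 and 35.9 CPM in those of clone 2 (log2 fold change -0.75, 95% interval -1.33 to -0.17, adjusted p = 0.667). RPL8 had a change of -0.62 (-1.34 to 0.10) and RPL7 of -0.64 (-1.22 to -0.06).

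Of the mitochondrial genes, 10 of 17 fell in A2058, all 17 were below 0 and the median was -0.50. CYC1, the cytochrome c1 subunit of respiratory complex III, measured 253, 250.4, 269.5 and 260.0 CPM in the 4 WT libraries, 139 and 169 CPM in the libraries of clone 1 and 177 and 184 CPM in those of clone 2 and fell (log2 fold change -0.64, SE 0.09, adjusted p = 0.00668). MRPS28, a protein of the small mitochondrial ribosome, was the lowest (log2 fold change -0.74, SE 0.12, adjusted p = 0.0128), but missed the threshold when WT replicate 1 (adjusted p = 0.0557) or WT replicate 2 (adjusted p = 0.0629) was left out. NDUFAF6, an assembly factor of complex I, was the least lowered at -0.26 (95% interval -0.55 to 0.02, adjusted p = 0.425). In HCT116 none of 17 was called and 16 were below 0, around a median of -0.67, 8 were non-overlapping and 6 were lower at an unadjusted p under 0.05. MTFR1, which acts in mitochondrial fission, was the lowest of those above 10 CPM, at 24.1 and 37.8 CPM in the 2 WT libraries, 8.66 and 8.60 CPM in the libraries of clone 1 and 20.2 and 21.8 CPM in those of clone 2 (log2 fold change -1.11, adjusted p = 0.744). Both clones of MTFR1 lay below WT, clone 1 further than clone 2. CYC1 stood at -0.67 (95% interval -1.40 to 0.07). MRPL15, a protein of the large mitochondrial ribosome, was the highest above 10 CPM at -0.23 (-1.15 to 0.70), with clone means 0.32 and -0.96 relative to WT on the log2 scale.

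Among 11 genes of ubiquitin and protein turnover, 4 fell in A2058 and all 11 were below 0, around a median of -0.54. RNF19A, a ubiquitin ligase, was the lowest and just missed the threshold (log2 fold change -0.78, SE 0.17, adjusted p = 0.0531), and UBE2W, a conjugating enzyme for protein N termini, the highest at -0.30 (adjusted p = 0.512). SHARPIN, a subunit of the linear ubiquitin ligase complex, was the lowest above 10 CPM in HCT116 at -1.05 (95% interval -1.85 to -0.25, adjusted p = 0.657). The HCT116 median of the 11 genes was -0.52.

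Of 12 vesicle traffic genes tested in A2058, 9 fell and all 12 were non-overlapping, where 124 and 177 of all 272 members did, and their median was -0.56. TRAPPC9, a subunit of a tethering complex at the Golgi, was the lowest at 38.8, 35.1, 26.5 and 34.9 CPM in the 4 WT libraries, 13.2 and 14.3 CPM in the libraries of clone 1 and 21.1 and 21.9 CPM in those of clone 2 (log2 fold change -0.95, SE 0.19, adjusted p = 0.0322). TRAPPC9 was lower in both clones, more so in clone 1, and its call was lost when some single libraries were left out. In HCT116 the same gene did not separate, at 78.1 and 54.5 CPM in the 2 WT libraries, 83.1 and 56.3 CPM in the libraries of clone 1 and 64.02 and 77.005 CPM in those of clone 2 (log2 fold change 0.02, 95% interval -0.60 to 0.64). VPS13B, a bulk lipid transfer protein at the Golgi, was the least lowered in A2058 at -0.40 (adjusted p = 0.115). VPS28, a subunit of the ESCRT-I complex, was the lowest above 10 CPM in HCT116 at -0.90 (95% interval -1.60 to -0.20, adjusted p = 0.684), where the median of 13 genes was -0.43.

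Signalling, adhesion and surface genes had the widest range of the 9 lists in A2058, from -1.07 to 0.65. Of 23 tested, 11 fell and 20 were below 0, with a median of -0.46. PTK2, the focal adhesion kinase (ENSG00000169398, chromosome 8, 140657900 to 141002216), measured 155, 151, 144 and 139 CPM in the 4 WT libraries, 109.5 and 98.7 CPM in the libraries of clone 1 and 91.4 and 84.1 CPM in those of clone 2 without overlap (log2 fold change -0.62, SE 0.09, adjusted p = 0.00778). YWHAZ, the zeta isoform of the 14-3-3 adapters, averaged 1921 ± 206 CPM (SD, n = 4) in WT and 1230.4 ± 125 CPM (SD, n = 4) in 8q-loss and fell (log2 fold change -0.65, SE 0.11, adjusted p = 0.0126), although not when WT replicate 2 was left out (adjusted p = 0.0621). PTP4A3, a phosphatase linked to metastasis, was the lowest at 10.96, 11.5, 10.5 and 15.4 CPM in the 4 WT libraries, 3.70 and 6.12 CPM in the libraries of clone 1 and 6.70 and 6.65 CPM in those of clone 2 (log2 fold change -1.07, SE 0.21, adjusted p = 0.0305). ANGPT1, the ligand of the TIE2 receptor, differed by clone: 32.04, 33.9, 32.4 and 26.03 CPM in the 4 WT libraries, 38.2 and 28.1 CPM in the libraries of clone 1 and 3.91 and 3.17 CPM in those of clone 2. Clone 1 overlapped WT and clone 2 lay far below it, and the fitted change was -0.77 (adjusted p = 0.675).

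In HCT116 all 21 signalling genes tested were below 0, 10 were non-overlapping and 7 were lower at an unadjusted p under 0.05, around a median of -0.70. SCRIB, a scaffold of apical-basal polarity, measured 737 and 470.4 CPM in the 2 WT libraries, 362 and 226 CPM in the libraries of clone 1 and 211 and 271 CPM in those of clone 2 without overlap (log2 fold change -1.23, 95% interval -1.87 to -0.60, adjusted p = 0.225). LY6E and LY6K, GPI-anchored surface proteins encoded on the distal arm, were also non-overlapping, at 976 and 584 CPM in the 2 WT libraries, 441 and 304 CPM in the libraries of clone 1 and 347 and 343 CPM in those of clone 2 for LY6E and 15.3 and 9.39 CPM in the 2 WT libraries, 4.38 and 3.05 CPM in the libraries of clone 1 and 2.29 and 3.65 CPM in those of clone 2 for LY6K. Their fitted changes were -1.18 (-1.78 to -0.58) and -1.94 (-2.85 to -1.04), with adjusted p-values of 0.218 and 0.163. PTK2 was lower in clone 1 than in clone 2, at 26.5 and 52.3 CPM in the 2 WT libraries, 18.2 and 28.2 CPM in the libraries of clone 1 and 51.5 and 42.7 CPM in those of clone 2, and its fitted change was -0.20 (-1.12 to 0.71). ASAP1, an ARF GTPase-activating protein that binds PTK2, was the highest of the list at -0.12 (-1.17 to 0.93), with clone means of -1.06 and 0.54 relative to WT. YWHAZ stood at -0.19 (-0.85 to 0.46).

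**Figure D5:**
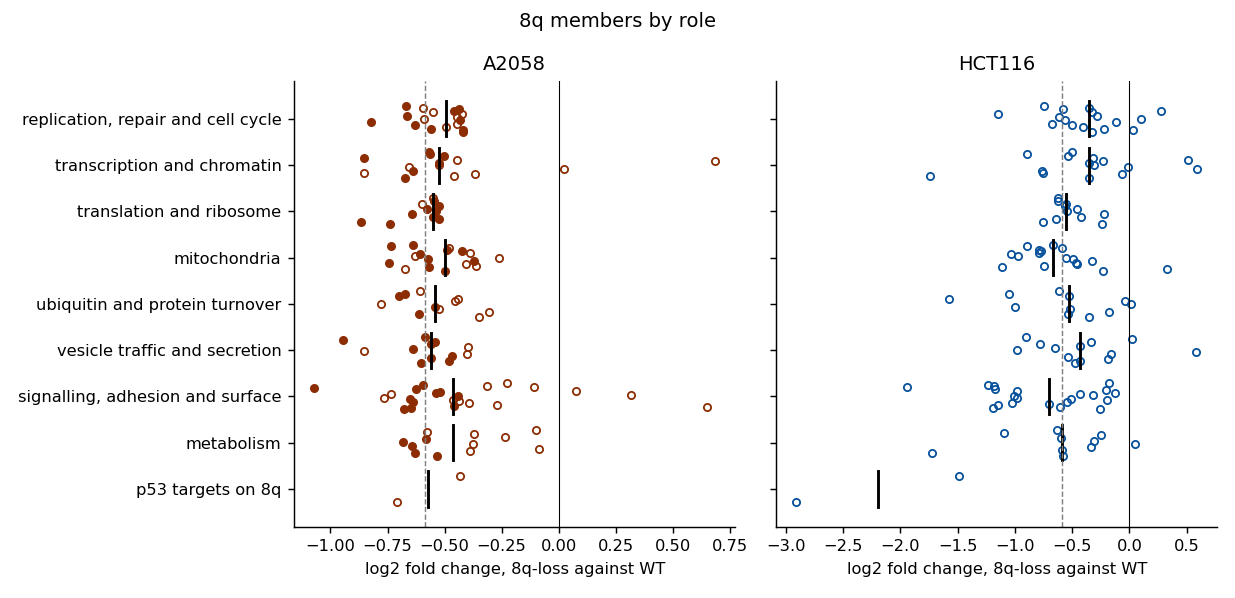
Log2 fold change of 8q-loss against WT (horizontal axis) of each listed member by role, in A2058 (left) and HCT116 (right), 1 point per gene, filled where called, with bars at list medians and a dashed line at -0.58. In A2058 the list medians lie between -0.57 and -0.46, and in HCT116 all but the p53 targets lie between -0.70 and -0.35.

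Of 12 metabolic genes tested in A2058, 5 fell, 6 were lower at an unadjusted p under 0.05 and all 12 were below 0, around a median of -0.46. PTDSS1, which makes phosphatidylserine, was the lowest (log2 fold change -0.68, SE 0.10, adjusted p = 0.00643). FABP5, a fatty acid carrier, was the highest and overlapped between groups, at 69.2, 85.5, 76.8 and 80.7 CPM in the 4 WT libraries, 74.01 and 84.6 CPM in the libraries of clone 1 and 60.7 and 76.7 CPM in those of clone 2 (log2 fold change -0.09, 95% interval -0.32 to 0.15). FABP5 has several processed pseudogenes, and its value is uncertain for the reason given for the ribosomal genes. In HCT116, 9 of 10 were below 0 around a median of -0.59. GGH, a hydrolase that trims folate polyglutamates, was the lowest. AZIN1, an inhibitor of the antizymes that degrade ornithine decarboxylase, was the highest above 10 CPM at -0.25 (-0.98 to 0.48).

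A pair of members are known targets of p53, the transcription factor of the DNA damage response. Their list median was -2.20 in HCT116 and -0.57 in A2058. With only 2 genes, the HCT116 median rests in part on TP53INP1, which met the minimum there through its WT libraries. TP53INP1, a stress-induced nuclear protein (ENSG00000164938, chromosome 8, 94925972 to 94949411), measured 6.34 and 8.26 CPM in the 2 HCT116 WT libraries, 0.509 and 0.147 CPM in the libraries of clone 1 and 1.82 and 1.51 CPM in those of clone 2 (log2 fold change -2.91). Its HCT116 8q-loss mean was 0.997 CPM, under the minimum of 1 CPM, which TP53INP1 met through its WT libraries. Its lower level in HCT116 8q-loss is therefore given as a description, without a test. RRM2B, the p53-inducible subunit of ribonucleotide reductase (ENSG00000048392, chromosome 8, 102204502 to 102239118), measured 25.2 and 35.3 CPM in the 2 WT libraries, 7.08 and 11.9 CPM in the libraries of clone 1 and 13.03 and 12.3 CPM in those of clone 2, without overlap (log2 fold change -1.49, 95% interval -2.24 to -0.73, unadjusted p = 0.00105, adjusted p = 0.218). In A2058, TP53INP1 overlapped between groups, at 10.4, 10.4, 10.2 and 7.32 CPM in the 4 WT libraries, 8.58 and 6.12 CPM in the libraries of clone 1 and 5.13 and 3.65 CPM in those of clone 2 (log2 fold change -0.71, SE 0.24, adjusted p = 0.233). RRM2B did not overlap there but missed the threshold, at 34.8, 35.97, 29.001 and 37.7 CPM in the 4 WT libraries, 27.9 and 27.3 CPM in the libraries of clone 1 and 21.1 and 26.3 CPM in those of clone 2 (log2 fold change -0.43, SE 0.12, adjusted p = 0.112). The change in A2058 minus that in HCT116 was 1.001 for RRM2B (95% interval 0.34 to 1.66, adjusted p = 0.224). CDKN1A, a p53 target on chromosome 6 and so no member, fell in HCT116. It averaged 751 ± 163 CPM (SD, n = 2) in HCT116 WT and 81.1 ± 37.9 CPM (SD, n = 4) in HCT116 8q-loss (log2 fold change -3.26, adjusted p = 0.00605), and 16.4 ± 6.99 CPM (SD, n = 4) and 27.7 ± 9.8 CPM (SD, n = 4) in A2058 (0.74, adjusted p = 0.33). MDM2, another p53 target outside chromosome 8, averaged 36.6 ± 22.3 CPM (SD, n = 2) in HCT116 WT and 23.9 ± 11.1 CPM (SD, n = 4) in HCT116 8q-loss (adjusted p = 1). Whether the p53 pathway had a part in the levels of the 2 members was not tested.

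The member with the smallest unadjusted p in HCT116 was GGH (ENSG00000137563, chromosome 8, 63015079 to 63039171). GGH measured 56.8 and 82.2 CPM in the 2 WT libraries, 24.5 and 25.3 CPM in the libraries of clone 1 and 19.9 and 17.2 CPM in those of clone 2, with the groups wide apart, and its adjusted p was just over the threshold (log2 fold change -1.72, SE 0.29, adjusted p = 0.0504). In A2058 GGH measured 84.8, 90.4, 85.97 and 77.97 CPM in the 4 WT libraries, 63.4 and 55.6 CPM in the libraries of clone 1 and 51.9 and 49.8 CPM in those of clone 2 and fell by a size near the median of the arm (log2 fold change -0.63, SE 0.09, adjusted p = 0.00822). The change in A2058 minus that in HCT116 was 1.03 (95% interval 0.49 to 1.58, unadjusted p = 0.00109, adjusted p = 0.105). DESeq2, the fit over both lines and the GC correction each called GGH lower in HCT116.

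SNAI2, the SLUG repressor of epithelial genes that acts in melanocyte precursors, was the member that fell most in A2058 (ENSG00000019549, chromosome 8, 48917604 to 48921740). It measured 25.6, 29.4, 22.2 and 17.05 CPM in the 4 WT libraries, 4.52 and 3.74 CPM in the libraries of clone 1 and 5.26 and 5.61 CPM in those of clone 2, with the lowest WT library far above every 8q-loss library (log2 fold change -2.31, SE 0.20, adjusted p = 0.000463). The call held in all 20 alternatives run for it, with values from -2.53 to -2.05. In HCT116 SNAI2 was at a low level and split by clone, at 2.71 and 3.06 CPM in the 2 WT libraries, 4.58 and 4.92 CPM in the libraries of clone 1 and 1.78 and 1.51 CPM in those of clone 2 (log2 fold change 0.10, 95% interval -1.24 to 1.45). The change in A2058 minus that in HCT116 was -2.47 (95% interval -3.65 to -1.28, unadjusted p = 0.000481, adjusted p = 0.0697), the smallest p of all members. SNAI2 was as low in some A2058 clones with no labelled change of 8q, which share the WT controls. It measured 3.50 and 5.01 CPM in 7p-loss clone 2 and 3.38 and 4.76 CPM in 7p-loss clone 3, against 55.4 and 58.9 CPM in 7p-loss clone 1. The 1q-loss libraries measured 34.9 and 40.03 CPM in clone 1 and 25.5 and 28.6 CPM in clone 2, within or above the range of WT. Against all 6 7p-loss libraries the 8q-loss change of SNAI2 was -2.18 with an adjusted p of 0.248.

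POP1, a protein of RNase P and RNase MRP, varied little within groups. It measured 83.3, 81.3, 79.8 and 78.5 CPM in the 4 WT libraries, 44.6 and 48.9 CPM in the libraries of clone 1 and 45.2 and 43.7 CPM in those of clone 2, and fell (log2 fold change -0.83, SE 0.07, adjusted p = 0.000463), and the calls of SNAI2, POP1 and RRS1 were the 3 of 24 named calls that held in all 20 alternatives. POP1 in 7p-loss measured 38.9 and 57.1 CPM in clone 1, 73.6 and 84.1 CPM in clone 2 and 73.2 and 86.4 CPM in clone 3, so 1 library of clone 1 lay below all 8q-loss libraries and all others above them. POP1 in HCT116 measured 35.98 and 45.3 CPM in the 2 WT libraries, 30.9 and 40.8 CPM in the libraries of clone 1 and 38.8 and 41.7 CPM in those of clone 2, where the groups overlapped (-0.14, 95% interval -0.76 to 0.48), and the difference was -0.75 (-1.22 to -0.28, unadjusted p = 0.00367, adjusted p = 0.197). CTHRC1, a secreted collagen triple helix protein, went the other way. It measured 5.16 and 6.06 CPM in the 2 WT libraries, 1.48 and 1.47 CPM in the libraries of clone 1 and 1.48 and 0.456 CPM in those of clone 2 in HCT116 (-2.24, -3.50 to -0.98, adjusted p = 0.341) and overlapped between groups in A2058, at 30.6, 51.1, 55.4 and 39.8 CPM in the 4 WT libraries, 34.6 and 30.1 CPM in the libraries of clone 1 and 43.04 and 34.2 CPM in those of clone 2 (-0.32, -0.73 to 0.08). All 4 HCT116 loss libraries lay below both WT libraries. The difference for CTHRC1 was 1.85 (0.92 to 2.78, unadjusted p = 0.000691, adjusted p = 0.0846). TTPA, the vitamin E transfer protein, was near the minimum level in both lines, averaging 2.17 ± 0.347 CPM (SD, n = 2) in HCT116 WT, 0.477 ± 0.204 CPM (SD, n = 4) in HCT116 8q-loss, 1.55 ± 0.151 CPM (SD, n = 4) in A2058 WT and 1.54 ± 0.268 CPM (SD, n = 4) in A2058 8q-loss. With a mean of 1.041 CPM, TTPA met the minimum in HCT116 only through its WT libraries, so its lower level in 8q-loss there is given as a description, without a test.

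The other 4 members that fell most in A2058 were RGS20, PTP4A3, ZNF251 and SDCBP. RGS20, a regulator of G protein signalling, measured 5.81, 8.65, 7.31 and 6.01 CPM in the 4 WT libraries, 1.25 and 2.85 CPM in the libraries of clone 1 and 3.33 and 3.43 CPM in those of clone 2 (log2 fold change -1.37, SE 0.29, adjusted p = 0.0451). ZNF251, a zinc finger protein, measured 13.1, 14.7, 16.7 and 12.3 CPM in the 4 WT libraries, 6.28 and 5.65 CPM in the libraries of clone 1 and 8.95 and 6.78 CPM in those of clone 2 (log2 fold change -1.05, SE 0.17, adjusted p = 0.0126). SDCBP, the syntenin adapter of exosome formation, measured 391, 355, 269.6 and 276 CPM in the 4 WT libraries, 194 and 168 CPM in the libraries of clone 1 and 141 and 148 CPM in those of clone 2 (log2 fold change -0.996, SE 0.14, adjusted p = 0.00739). In none of the 3 did an 8q-loss library reach the lowest WT library. Leaving out some single libraries ended the calls of RGS20 and PTP4A3, leaving out WT replicate 2 that of ZNF251, and no single library that of SDCBP.

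RGS20, ZNF251 and SDCBP were at similar levels in A2058 1q-loss, which shares its WT controls with 8q-loss and has no labelled change of 8q, and PTP4A3 was in 1 of its 2 clones. RGS20 averaged 6.95 ± 1.31 CPM (SD, n = 4) in WT, 2.71 ± 1.01 CPM (SD, n = 4) in 8q-loss and 2.61 ± 0.393 CPM (SD, n = 4) in 1q-loss. PTP4A3 averaged 12.1 ± 2.27 CPM (SD, n = 4) in WT and 5.79 ± 1.42 CPM (SD, n = 4) in 8q-loss, and measured 10.09 and 8.26 CPM in 1q-loss clone 1, between the 2 groups, and 4.22 and 4.37 CPM in 1q-loss clone 2. ZNF251 averaged 14.2 ± 1.96 CPM (SD, n = 4), 6.91 ± 1.43 CPM (SD, n = 4) and 6.57 ± 1.29 CPM (SD, n = 4) in the order WT, 8q-loss, 1q-loss. SDCBP averaged 323 ± 59.7 CPM (SD, n = 4), 163 ± 23.5 CPM (SD, n = 4) and 160.3 ± 14.5 CPM (SD, n = 4) in that order. In 7p-loss, ZNF251 ranged from 11.2 to 13.03 CPM and SDCBP from 244 to 467 CPM over the 6 libraries, above every 8q-loss library. The other two differed by 7p-loss clone. PTP4A3 measured 4.20 and 5.82 CPM in 7p-loss clone 1, within the range of 8q-loss, and 14.3 to 17.2 CPM in clones 2 and 3. RGS20 measured 9.36 and 11.5 CPM in clone 1, above every WT library, and 3.83 to 5.84 CPM in clones 2 and 3, between 8q-loss and WT or at the lowest WT level.

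The members spread more widely in 1q-loss than in 8q-loss, around a median near 0. Taking the mean log2 level of a group's libraries minus that of WT over the 272 members, 22 were below -1 and 17 above 1 in 1q-loss, with quartiles of -0.32 and 0.24 around a median of -0.05. In 8q-loss 9 were below -1 and 0 above 1, with quartiles of -0.65 and -0.42, and in 7p-loss 5 were below -1 and 1 above 1, with quartiles of -0.16 and 0.10. In HCT116 8q-loss 33 of 254 were below -1 and 1 above 1.

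A comparison of the same 8q-loss libraries with 7p-loss used no WT library. Against the 6 7p-loss libraries, 108 of 271 members tested fell in 8q-loss (39.9%, where 1.45% of all genes were called lower), none was called higher (1.9% of all genes, and 3.35% in either direction) and 252 were below 0 (51.1% of all genes), around a median of -0.52. At an unadjusted p under 0.05, 197 were lower (9.77% of all genes) and 2 higher (9.09%). All 8q-loss libraries lay below all 7p-loss libraries in 135 members (49.8%, against 3.64% of all genes) and above all of them in 0 (3.98%). With the libraries of each clone summed, edgeR called 0 of 275 members and 158 were past an unadjusted p under 0.05. Without 8q-loss clone 1 the call count was 52, without 8q-loss clone 2 14, and without 7p-loss clones 1, 2 and 3 in turn 144, 51 and 49. PKIA was called higher without 8q-loss clone 1, by DESeq2 and with no filter, and THEM6 without 1 library of 8q-loss clone 1. By this comparison POP1 stood at -0.60 (adjusted p = 0.132), MYC at -1.01 (adjusted p = 0.286) and RAD21, whose 7p-loss libraries ranged from 352 to 434 CPM, fell (-0.74, adjusted p = 0.00639).

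No member was called higher in either line with all libraries, and several of the 5 highest of each line were higher in 1 clone alone. PKIA was called higher in A2058 without clone 1 (log2 fold change 2.07, adjusted p = 0.00586). Without clone 2, ATP6V0D2 (1.67, adjusted p = 0.00507), NOV (0.90, adjusted p = 0.0109) and RDH10, a retinol dehydrogenase (0.64, adjusted p = 0.0393), were called higher. The 5 highest in A2058 were PKIA, ATP6V0D2, ZHX2, SULF1 and NOV. PKIA, an inhibitor of protein kinase A, measured 1.23, 1.35, 0.904 and 1.86 CPM in the 4 WT libraries, 0.117 and 0.382 CPM in the libraries of clone 1 and 4.54 and 6.78 CPM in those of clone 2, below WT in clone 1 and above it in clone 2 (log2 fold change 1.13, adjusted p = 0.65). ATP6V0D2, a subunit of the vacuolar proton pump, measured 1.65, 1.26, 1.55 and 1.503 CPM in the 4 WT libraries, 4.17 and 5.44 CPM in the libraries of clone 1 and 1.66 and 0.999 CPM in those of clone 2, higher than WT in clone 1 and overlapping it in clone 2 (1.03, adjusted p = 0.383). NOV, a matricellular growth regulator, measured 59.2, 55.3, 66.7 and 46.9 CPM in the 4 WT libraries, 119 and 96.2 CPM in the libraries of clone 1 and 32.9 and 37.5 CPM in those of clone 2, above WT in clone 1 and below it in clone 2 (0.32, adjusted p = 0.784). ZHX2, a zinc finger and homeobox repressor, was at 0.69 (adjusted p = 0.308) and SULF1, an extracellular sulfatase, at 0.65 (adjusted p = 0.786), averaging 1.70 and 3.76 CPM in WT.

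In HCT116 the 5 highest were CSMD3, C8orf76, GRHL2, CHMP4C and ZHX1. CSMD3, a large transmembrane protein, was the single member whose 4 loss libraries lay above both WT libraries, at 2.05 and 1.72 CPM in the 2 WT libraries, 3.51 and 6.64 CPM in the libraries of clone 1 and 4.16 and 4.65 CPM in those of clone 2 (log2 fold change 1.28, 95% interval 0.16 to 2.40, adjusted p = 0.798). GRHL2, an epithelial transcription factor, measured 0.700 and 1.66 CPM in the 2 WT libraries, 2.95 and 3.88 CPM in the libraries of clone 1 and 0.255 and 0.182 CPM in those of clone 2, above WT in clone 1 and below it in clone 2 (0.59, -1.91 to 3.10). C8orf76 stood at 0.73 (-0.60 to 2.06), CHMP4C, an ESCRT-III subunit, at 0.58 (-0.80 to 1.95), and ZHX1, a zinc finger and homeobox protein, at 0.51 (-0.64 to 1.65).

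Levels of the named members also differed between lines. MYC averaged 37.1 CPM in A2058 WT, 108 in A2780 WT, 119 in the single AGS WT library, 461 ± 1.54 CPM (SD, n = 2) in MCF10A WT and 501 ± 69.6 CPM (SD, n = 2) in HCT116 WT, with the last pair not apart beyond their spread. SNAI2 was highest in MCF10A WT, at 96.9 ± 3.54 CPM (SD, n = 2), and stood at 33.2 ± 3.77 CPM (SD, n = 2) in A2780 WT, 11.6 ± 0.792 CPM (SD, n = 2) in A2780 TK+ and 15.6 ± 11.4 CPM (SD, n = 6) in A2780 1q-loss. RAD21 averaged 506 ± 30.2 CPM (SD, n = 2) in MCF10A WT, 485 ± 0.629 CPM (SD, n = 2) in A2780 WT, 211 CPM in AGS WT, 371 ± 45.9 CPM (SD, n = 4) in A2058 WT and 123 ± 65.5 CPM (SD, n = 2) in HCT116 WT. TP53INP1 was highest in AGS, at 110.2 CPM in WT and 113 ± 14.2 CPM (SD, n = 5) in 1q-loss, and RRM2B likewise, at 273 CPM and 184 ± 26.2 CPM (SD, n = 5). These levels are descriptions of lines grown and sequenced for separate comparisons and were not tested.

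Of the 294 members of either line, 88 overlap another gene that reached the minimum and 37 have a pseudogene named after them, and the sources used here do not state whether the counting used strand, so single values in these genes may include reads of a neighbour or a copy.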

How the data were processed

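Bulk messenger RNA libraries were made from poly(A) RNA with random-hexamer cDNA, per the labels' protocols. The deposited values are raw counts per gene for each library, which the authors made with HISAT2 2.0.5 and featureCounts 1.5.0-p3 on hg38, per the submitters' processing notes. Strand and multi-read settings were not given in the sources used here. The 10 A2780 tables hold GRCh37 coordinates and were joined by gene ID (45342 IDs shared).

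Groups come from the labels. Levels are CPM with 1 TMM scaling over all 62 libraries. Each comparison was fitted to the counts of its own groups with edgeR 4.0.16 (R 4.3.3; quasi-likelihood test, minimum count 10, minimum total 15, TMM), adjusted by Benjamini-Hochberg over all genes tested; the difference between lines was an interaction term. Standard errors were derived from F. Log2 CPM used a prior count of 2. No comparison used libraries that agreed within sampling noise.

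The 8q genes, the role lists and the tests were chosen with earlier results of these data known. Named genes were 10 fixed ones (MYC, RAD21, NBN, PRKDC, MCM4, RRM2B, TP53INP1, PTK2, YWHAZ and 1 that is not reported here), the 5 largest falls among called members in A2058 and the 5 smallest p in HCT116, the 5 largest increases in each line, the lowest and highest of each role list above 10 CPM, the 5 smallest p for the difference, and the 5 highest per kilobase. PTP4A3, SULF1, LY6K and others under 10 CPM are named by the other parts of that rule, and CDKN1A, MDM2, CPNE3, NDRG1, RDH10 and THEM6 were named after their values were seen. In simulated counts, 22 of 97 genes lowered 1.5-fold and 60 of 93 lowered 2-fold were recovered for A2058, with 3 false calls among 14729, and 0 of 98 and 0 of 87 for HCT116. The lowered genes were picked at random and the libraries drawn independently. These rates therefore do not describe a whole arm or libraries that share a clone. Alternatives were DESeq2 1.42.0, RLE scaling, TMM outside chromosome 8, no filter, summed clones, a replicate block, libraries and clones left out, subsets of WT and a fit over both lines. A GC correction by lowess offsets was added after the data were seen. Base sequences are not shown.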

Additional observations from a re-analysis of the deposited data

Results flagged for a closer look

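The 130 sets of values examined were 1 gene in 1 group of 4 libraries, or the median 8q shift in a group of at least 4 libraries. Of these sets, 4 held a library that stood apart from the rest by Dixon's criterion, which chance alone meets in about 1 in 20 sets. RRS1 measured 95.87 CPM in A2058 WT replicate 3 and 100.5 to 101 CPM in the other WT libraries, a gap that is small beside the 8q-loss levels. SULF1 measured 8.046 CPM in A2058 WT replicate 3 and 1.94 to 2.98 CPM in the other WT libraries. TP53INP1 measured 7.318 CPM in A2058 WT replicate 4 and 10.2 to 10.4 CPM in the others, and that library is the one that overlapped 8q-loss. CTHRC1 measured 0.4562 CPM in replicate 2 of HCT116 8q-loss clone 2 and 1.47 to 1.48 CPM in the other loss libraries, all below WT.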

How the results depend on the processing

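The direction over the arm held in all alternatives run: the median change of the A2058 members was -0.58 when 8q-loss clone 1 was left out and otherwise within -0.56 to -0.51, and that of the HCT116 members was -0.65 without clone 1 and -0.64 to -0.43 when single libraries were left out. The number of called members depended on the libraries. In A2058 it was 60 to 125 when single libraries were left out (lowest without WT replicate 2), 27 with WT replicates 1 and 2 only, 4 with WT replicates 3 and 4 only and 7 in the fit over both lines. DESeq2 called 166, the GC correction 150 and no filter 145. In HCT116 edgeR's 0 became 1 with RLE size factors, 8 with no filter, 1 without clone 1, 5 without clone 2, 6 with the GC correction and 13 in the fit over both lines, and DESeq2 called 7. For the difference between lines the count was 6 by DESeq2, 2 with no filter, 0 to 3 when single libraries were left out, 18 without HCT116 clone 1, 7 without clone 2 and 1 with the GC correction. Against 7p-loss it was 0 with the libraries of a clone summed, 37 to 101 when single libraries were left out, 52 and 14 without 8q-loss clone 1 and clone 2, and 144, 51 and 49 without 7p-loss clones 1, 2 and 3. The cause of these changes was not tested, other than that every setting leaving out libraries has fewer of them. Members under 10 CPM rest on few counts in each library, which limits the precision of their values.

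The replicate numbers were not taken as pairing the samples, since the labels tie them to no shared day or culture and same-numbered libraries did not all deviate together. The correlation of their deviations between WT and clones 1 and 2 was 0.02 and -0.03 in A2058 and 0.14 and -0.05 in HCT116, and between the 2 clones 0.49 in A2058 and -0.06 in HCT116. With the replicate block, 12 A2058 members were called, 0 in HCT116, 0 for the difference and 110 against 7p-loss. TTPA in A2058 stood at 0.014 under the block.

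For single genes, 1319 of 1579 alternative values kept direction and side of the threshold, 138 lost a call, 66 gained one and 56 turned sign. The signs that turned were those of changes near 0 or of genes whose clones differ. In A2058, values ran over single libraries left out from -0.051 to 0.12 for KLF10, -0.045 to 0.55 for NOV, -0.31 to 1.34 for SULF1 and -0.11 to 0.073 for TTPA. Without clone 1 they were -0.17 for ATP6V0D2, -0.036 for KLF10, -0.70 for NOV and -0.22 for SULF1, and without clone 2 0.077 for ANGPT1, 0.0044 for FABP5 and -2.44 for PKIA. TTPA was at 0.014 with WT replicates 1 and 2 only, and KLF10 at -0.098 with WT replicates 3 and 4 only. In HCT116, the ranges over single libraries left out were -0.39 to 0.15 for ASAP1, -0.087 to 0.78 for ATAD2, -0.55 to 0.14 for AZIN1, -0.10 to 1.92 for CHMP4C, -0.10 to 1.31 for GRHL2, -0.16 to 0.083 for KLF10, -0.25 to 0.40 for MCM4, -0.27 to 0.013 for POP1, -0.63 to 0.085 for PRKDC, -0.59 to 0.34 for PTK2, -0.73 to 0.36 for RAD21, -0.18 to 0.34 for SNAI2, -0.23 to 0.35 for TRAPPC9 and -0.46 to 0.15 for YWHAZ. Without clone 1 the values were 0.47 for ASAP1, 0.053 for AZIN1, -2.44 for GRHL2, 0.17 for KLF10, 0.19 for PABPC1, 0.22 for PTK2, 0.19 for RAD21, -0.85 for SNAI2 and 0.083 for YWHAZ, and without clone 2 -0.15 for ATAD2, -0.29 for MCM4, 0.29 for MRPL15 and 0.33 for RPS20. MCM4 was at -0.043 with the GC correction, and KLF10 at 0.0077 with the libraries of a clone summed and 0.0496 in the fit over both lines.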

Other observations

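Some named members, chosen here after their values were seen, lay outside the range of WT in every A2058 1q-loss library. PKIA, the protein kinase A inhibitor, measured 24.53 and 27.2 CPM in 1q-loss clone 1 and 34.95 and 39.8 CPM in clone 2, where no WT library was above 1.86 CPM. KLF10, the repressor induced by TGF-beta, measured 70.7 and 96.2 CPM and 67.2 and 79.9 CPM in the same clones, where no WT library was above 40.7 CPM. NOV, the matricellular protein, measured 12.9 and 15.7 CPM and 7.04 and 7.75 CPM, where no WT library was below 46.9 CPM. PKIA and KLF10 were thus higher, and NOV lower, in both clones. These values share their WT libraries with the 8q-loss comparison and were not tested here.

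In AGS, 1 of the 5 1q-loss clones, clone 4, had a shift of -0.65 over the short arm of chromosome 8, while its shift over 8q was 0.03. The other 7 AGS libraries had short-arm shifts between -0.01 and 0.07.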
